A study of Mus musculus with 2 samples.

Results

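The genes described here are 42 markers of the dividing cell, read across the cell types of the infarcted mouse brain. They were taken as listed by symbol from the 31253 features of the deposited matrices, and all 42 were found. Of these, 14 are genes of DNA replication (S-phase members), 25 are genes of chromosome condensation, spindle assembly and division (mitotic members), and 3 (Stmn1, Hmgb2 and Ccnd1, the broad members) are also expressed outside the cycle and were kept out of both sums. The cells came from infarct tissue taken 3 days after tMCAO (transient middle cerebral artery occlusion). This operation blocks and then reopens an artery of the brain to model ischaemic stroke. They were profiled with the BD Rhapsody single-cell system after collagenase digestion. The mice labelled flox (the design text also has WT for them) gave 1 library, and the mice labelled hilpdacko, a conditional knockout (cKO) of Hilpda, gave the other. Hilpda encodes a lipid droplet protein that restrains triglyceride breakdown. Both libraries share the operation and the time point. The sources used here do not give the Cre driver, the cells it acts in, the deleted exons, or the sex, age and number of the animals, so a Hilpda level is no check of the genotype. With 1 library per group no test was possible, and the library, its preparation and the genotype cannot be told apart. All intervals below are 95% intervals of counting error only.

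A cell that divides passes from G1 through DNA synthesis in S phase to G2 and mitosis. E2F factors switch on replication genes near the start of S phase, and a later wave of mitotic genes is driven through the MuvB complex with B-MYB and FOXM1. Both waves are low in resting cells, so transcripts of these genes are used as marks of cells in the cycle. The mark is not strict for every gene. Pcna was found in 74.7% of flox and 74.9% of cKO cells kept after filtering. Microglia, the resident macrophages of the brain, are known to divide after injury, whereas blood monocytes enter the infarct and become macrophages. Oligodendrocyte precursors are the main dividing glial cells of the adult brain.

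After filtering, 8061 flox and 6983 cKO cells remained, with a median of 6993 and 8747 UMIs (unique molecular identifiers, each counting 1 captured transcript). In all, 56 cell barcodes occurred in both libraries, 49 of them among the kept cells. Cells were grouped into 33 clusters without using the members or 194 other genes that rose and fell with them, and clusters were named "-like" from marker genes. Microglia-like cells numbered 2085 in flox and 1344 in cKO, and monocyte or macrophage-like cells (macrophage-like from here on) 3619 and 3083. All 11 listed microglia markers and all 11 listed monocyte and macrophage markers were above 0 in their class in both libraries. So were those of the other named classes, except 1 of the 7 fibroblast markers, which was at 0. In sums over many cells this is a weak check of the names. Each microglia-like cluster had all 11 markers at least 2-fold above the median of the clusters. The macrophage-like clusters had between 6 and 11 of their 11. Depth differed with class and library. The median was 9140 UMIs in flox and 14642.5 in cKO microglia-like cells, and 7955 and 10076 in macrophage-like cells. Levels are therefore given as CPM, the UMIs of a gene scaled to a class total of 1000000 UMIs.

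Dividing-cell transcripts were concentrated in a few cell types, in the same classes in both libraries. The summed mitotic members reached 5472 CPM (flox) and 5050.4 CPM (cKO) in oligodendrocyte precursor-like cells, the highest of the 17 named classes in each library. Neuroblast-like cells came next, at 3396 and 4945 CPM. Microglia-like cells of the flox library had 1768 CPM (interval 1750.3 to 1786, 38404 UMIs) and those of cKO 1951 CPM (1932 to 1971, 38428 UMIs). Fibroblast-like cells lay at 2043 and 2436 CPM, pericyte-like cells at 1352 and 2134 CPM, and astrocyte-like cells at 2273 and 1305 CPM, so the order among these classes and microglia-like cells was not the same in the libraries. Each of these smaller classes held 102 cells or fewer per library. Macrophage-like cells stood far lower, at 144 (flox) and 191 CPM (cKO), as did choroid plexus epithelial cell-like cells, a mature epithelium, at 33.3 and 136 CPM.

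The S-phase sum ranked the classes in much the same way but over a narrower range. Oligodendrocyte precursor-like cells had 3586 CPM of S-phase members in flox and 3660 in cKO, and microglia-like cells 1531 and 1508. In macrophage-like cells the sum was 413 (flox) and 422 (cKO), and in choroid plexus-like cells 181 and 280.1. The mix of both sums also differed by class. Of all S-phase and mitotic UMIs, mitotic members gave 53.6% in flox and 56.4% in cKO microglia-like cells but 25.9% and 31.2% in macrophage-like cells, with no overlap of the counting intervals between these classes. Oligodendrocyte-like cells, which are mature and myelin-forming, gave 13.3% and 30.8%.

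**Figure D1:**
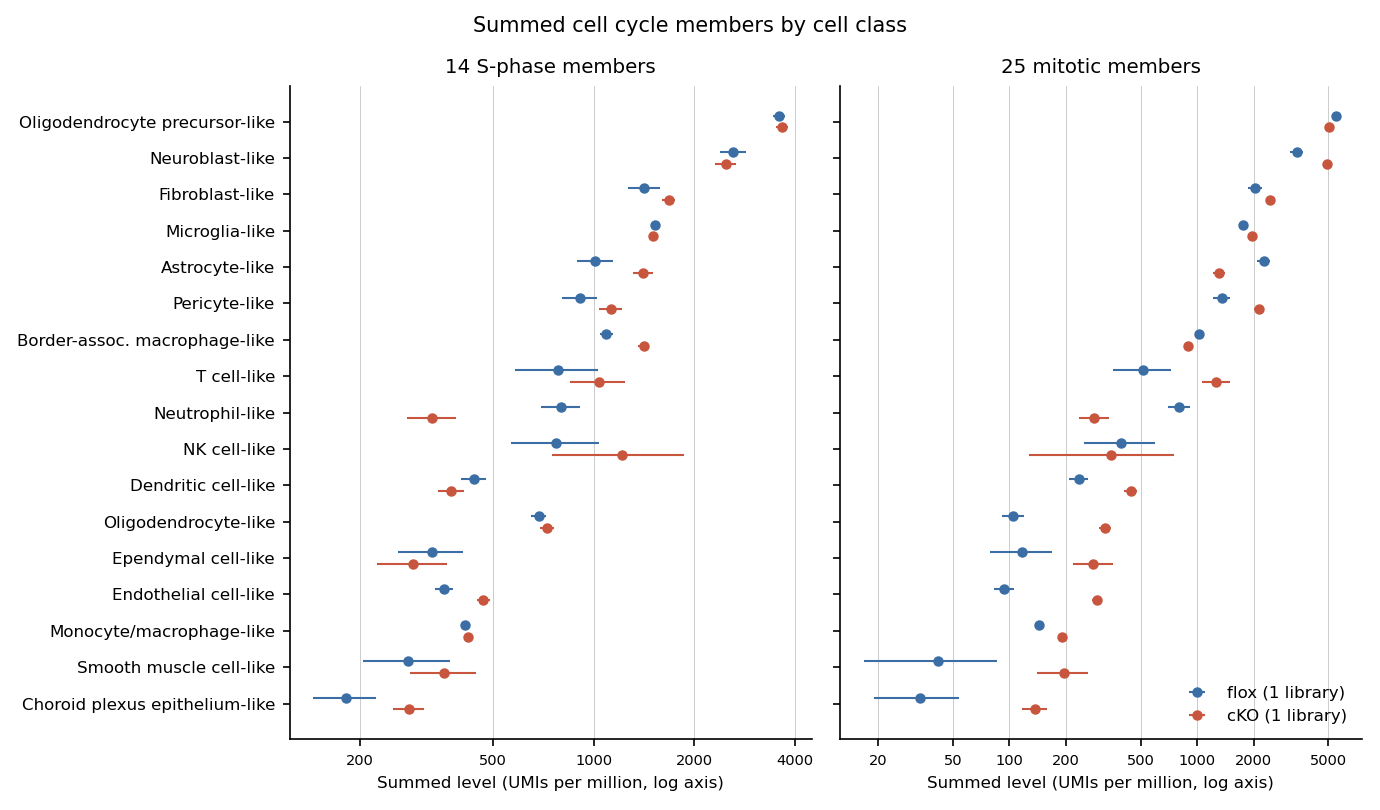
Summed level of the 14 S-phase members (left) and the 25 mitotic members (right) in each cell class, in CPM on a log axis, with 1 point per library and exact Poisson 95% intervals that cover counting error only. Oligodendrocyte precursor-like cells are highest in both panels, and macrophage-like cells (144 and 191 CPM of mitotic members) lie far below them.

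The share of cells positive for members was read after each cell was thinned at random to 2000 UMIs, because deeper cells show more members. A cell counted as positive when UMIs of at least 2 different members were left. Cells under 2000 UMIs were left out of the thinned shares and wherever positive cells are set against other cells. Mitotic-positive cells were 553 of 2009 among flox microglia-like cells (27.5%, interval 25.6% to 29.5%). In cKO they were 439 of 1321 (33.2%, interval 30.7% to 35.8%). Unthinned cells gave 44.2% and 56.0%. Among macrophage-like cells the positive ones were 88 of 3534 (2.49%, interval 2.0% to 3.06%) in flox and 93 of 3011 (3.09%, interval 2.50% to 3.77%) in cKO. Unthinned, 14.8% and 23.0% were positive. Oligodendrocyte-like cells, a class with little division, gave 2.39% (6 of 251) and 2.77% at median depths of 4496.5 and 4999.5 UMIs. The macrophage-like share was thus close to that of oligodendrocyte-like cells and no order is read between them. Positive macrophage-like cells carried 2394 and 2440 CPM of mitotic members, and positive oligodendrocyte-like cells 606 and 4951 CPM. Choroid plexus-like cells gave 0 of 52 flox cells, which allows a share of up to 5.77% by 3 counts of 52 (exact upper bound 6.85%), and 1 of 120 cKO cells (0.833%), and endothelial-like cells gave 0.946% in flox.

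Oligodendrocyte precursor-like cells were mostly positive, with 44 of 51 flox and 31 of 38 cKO cells (86.3% and 81.6%). Among pericyte-like cells 5 of 37 and 18 of 48 were positive. Border-associated macrophage-like cells, the macrophages of the brain's membranes and vessels, gave 16.2% and 15.5%. For S-phase members, 33.8% of flox and 36.6% of cKO microglia-like cells were positive, as were 9.90% and 9.37% of macrophage-like cells. Oligodendrocyte-like cells gave 17.1% and 15.8%. The macrophage-like S-phase share thus lay below that of a class with little division. Microglia-like cells made up 28.5% of the thinned flox cells but 68.7% of the 805 mitotic-positive ones, and 22.1% of the cKO cells but 60.2% of the 729 positive ones.

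**Figure D2:**
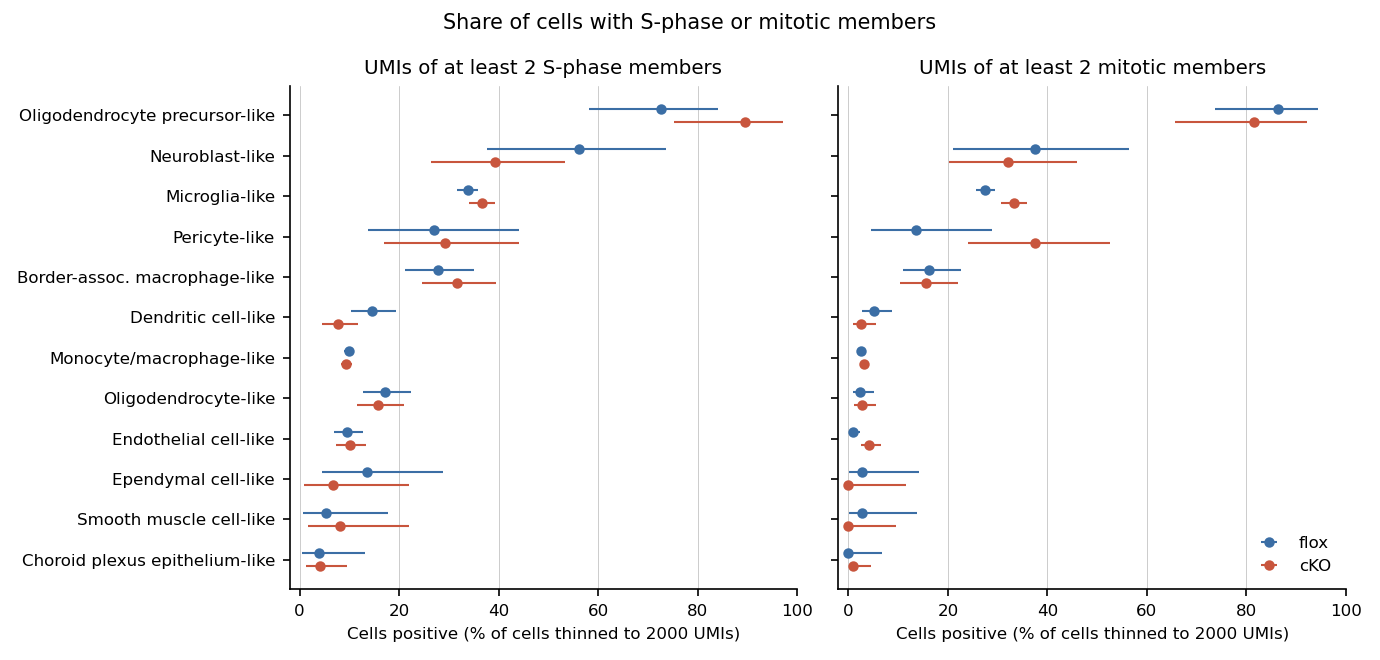
Percent of cells positive for S-phase members (left) and mitotic members (right) after thinning to 2000 UMIs, in the 12 classes with at least 30 thinned cells in each library, with exact binomial 95% intervals. Microglia-like cells reach 27.5% and 33.2% for mitotic members, and macrophage-like cells 2.49% and 3.09%, beside 2.39% and 2.77% in oligodendrocyte-like cells.

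Nearly all mitotic UMIs of microglia-like cells lay in a minority of cells. The 438 flox and 376 cKO cells with 20 or more mitotic UMIs held 91.3% and 92.9% of the class's mitotic UMIs, and the remaining cells stood at 229 and 224 CPM. In macrophage-like cells the 20 flox and 30 cKO cells of this kind held 34.3% and 44.3%, and the rest stood at 95.5 and 108 CPM. The cutoff is in raw UMIs and is reached more easily in deeper cells. Positive microglia-like cells were also deeper, with medians of 14791 against 7234 UMIs in flox and 19400 against 10862.5 UMIs in cKO. Their 11 microglia markers summed to 15847 CPM (flox) and 14782 CPM (cKO), against 19668 and 17136 in the other microglia-like cells. The 11 monocyte and macrophage markers summed to 784 and 716 CPM in them, against 582 and 539 in the others. Positive macrophage-like cells carried 3122 and 3098 CPM of those markers, beside 2854 and 3231 CPM in the other macrophage-like cells. Cells taken for doublets and left out made up 3.59% of mitotic-positive flox cells and 2.41% of mitotic-positive cKO cells, against 1.78% and 1.38% of cells positive for neither sum, and the part of remaining doublets in the shares was not tested.

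Every member was higher in microglia-like than in macrophage-like cells, in both libraries. A gene was called past the fold when it differed at least 1.5-fold, had at least 30 UMIs where it was higher and an interval without equality. By this rule 42 of 42 members were higher in both libraries and 0 were lower, against 19.8% of 10927 genes higher and 10.4% lower. In flox alone 24.5% of genes were higher and 11.8% lower, and in cKO alone 21.9% and 12%. The median log2 ratio was 4.22 in flox and 3.91 in cKO for mitotic members, 2.60 and 2.63 for S-phase members, and 0.12 and 0.07 for all genes.

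Among the mitotic members the widest gap was that of Hmmr, a receptor for hyaluronan that also acts at the spindle. It had 51.1 (flox) and 56.8 CPM (cKO) in microglia-like cells, where macrophage-like cells had 1.26 and 2.33 CPM, a 40.4-fold and 24.4-fold difference. Ccna2, the cyclin A2 that carries cells through S and G2, had 132 and 137 CPM against 5.38 and 8.20 CPM. Top2a, the topoisomerase that untangles sister chromatids, had 200.4 and 214 CPM against 12.5 and 18.3 CPM. Kinases and motors of the spindle were also higher in microglia-like cells. The mitotic kinase Aurka had 14.6 and 15.1 against 2.24 and 1.62 CPM, and Aurkb, which acts at the centromere, 41.0 and 41.4 against 3.82 and 4.91 CPM. Tpx2, the activator of Aurka, had 68.0 and 73.7 against 4.15 and 5.25 CPM, and the checkpoint kinase Bub1 had 42.2 and 40.2 against 2.27 and 2.67 CPM. Of the kinesins, Kif11, which separates spindle poles, differed 17.5-fold and 12-fold, Kif20a, which acts in cytokinesis, 18.9-fold and 15.5-fold, and the kinetochore motor Cenpe 18.8-fold and 13.5-fold. The smallest mitotic gaps were in Cenpa, the histone H3 variant of centromeres (89.8 and 98.7 against 25.3 and 31.0 CPM), Smc2, a condensin subunit (85.5 and 95.8 against 14.9 and 18.5 CPM), and Mki67, the Ki-67 protein of the chromosome surface (154 and 171 against 26.1 and 37.1 CPM). Cenpa and Mki67 therefore gave a larger part of the mitotic UMIs in macrophage-like cells. Mki67 gave 18.1% and 19.4% of them there and 8.74% and 8.76% in microglia-like cells, and Cenpa 17.5% and 16.2% against 5.08% and 5.06%.

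Among the S-phase members the gap was narrowest for Pcna. This sliding clamp of DNA polymerases, which also serves DNA repair, had 698 and 671 CPM in microglia-like and 282 and 281 CPM in macrophage-like cells. It gave 45.6% and 44.5% of the S-phase UMIs in microglia-like cells, 68.3% and 66.7% in the macrophage-like class and 24.6% and 24.0% among oligodendrocyte precursor-like cells. Of the subunits of the replicative helicase, Mcm4 (2.75-fold in flox and 2.66-fold in cKO) and Mcm3 (2.97-fold and 2.93-fold) came next. Mcm2 had 46.5 and 43.8 against 11 and 10.6 CPM, Mcm6 had 110 and 106 against 22.1 and 24.4 CPM, and Mcm7 had 41.2 and 38.2 against 6.32 and 5.56 CPM. Mcm5 differed more, with 91.8 and 101 against 8.10 and 10.9 CPM, 11.3-fold and 9.26-fold. Rrm2, the ribonucleotide reductase subunit that is made in S phase, had 122 and 108 against 5.44 and 7.49 CPM. Pclaf, a partner of the clamp, had 116 and 138 against 6.61 and 10.1 CPM.

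**Figure D3:**
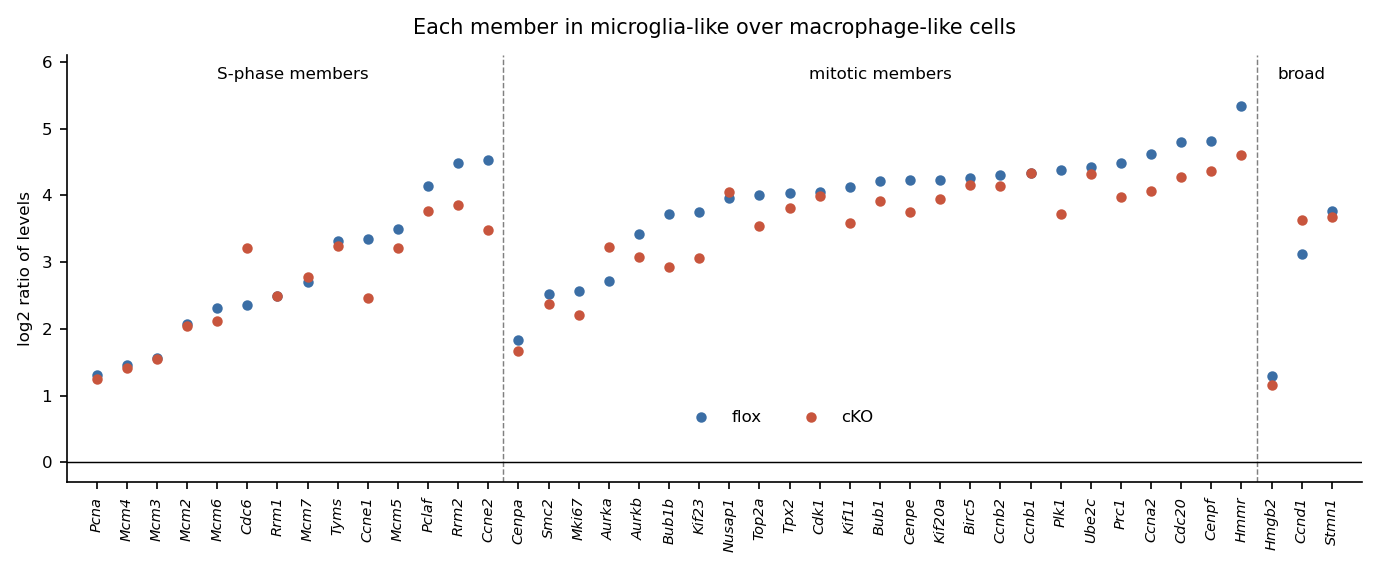
Log2 ratio of the level (CPM) in microglia-like over macrophage-like cells for each of the 42 members, with 1 point per library, sorted within S-phase, mitotic and broad members. All points lie above 0, from Hmgb2 and Pcna at the low end to Hmmr (5.34 in flox and 4.61 in cKO) at the high end.

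The 3 broad members had patterns of their own. Ccnd1, the cyclin D1 that takes growth signals into G1, was highest in oligodendrocyte precursor-like cells at 1889 and 2497 CPM, with astrocyte-like cells next (786 and 934 CPM) and then the oligodendrocyte-like (496 and 665 CPM). Microglia-like cells had 148 and 183 CPM and macrophage-like cells 17.1 and 14.7 CPM. Ccnd1 was thus high in oligodendrocyte-like cells, where mitotic members were low. Stmn1, which destabilises microtubules and is also a neuronal gene, was highest in neuroblast-like cells at 3012 and 3038 CPM and stood at 401 and 398 CPM in microglia-like cells. Hmgb2, a DNA-bending chromatin protein, was highest in oligodendrocyte precursor-like cells in flox and in neuroblast-like cells in cKO. The first had 908 and 874 CPM, and the second 779 and 1051 CPM. Neutrophil-like cells had 593 and 469.6 CPM, above the 265 and 252 CPM of microglia-like cells.

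Within microglia-like cells the members followed the cluster. The largest cluster, led by Cd5l, Mmp12, Lpl and Cst7, held 51.3% of flox and 69.1% of cKO microglia-like cells. The next, led by the homeostatic genes Siglech, Slc2a5, Gpr34 and P2ry12, held 45.6% and 28.6%, and a small cluster led by interferon-induced genes such as Ifit3 held 3.07% and 2.31%. Mitotic-positive cells made up 38.1% (35.2% to 41.1%) in flox and 40.5% (37.3% to 43.8%) in cKO of the Cd5l cluster. In the P2ry12 cluster they made up 14.6% (12.3% to 17.1%) and 15.5% (12% to 19.6%). The intervals of the libraries overlapped within both clusters, which does not show equal shares. The whole classes gave 27.5% and 33.2%, and the cKO class drew more of its cells from the Cd5l cluster. The part of this makeup in the class shares was not tested. The mitotic sum was 1919 and 2039 CPM in the Cd5l cluster and 1373 and 1442 CPM in the P2ry12 cluster, and the S-phase sum 1788 and 1623 CPM in the first and 845 and 831 CPM in the other. The clusters also differed in depth, with medians of 14073.5 and 18213 UMIs in the first and 5038 and 6600 UMIs in the second. The part of depth in the sums was not tested.

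Between the libraries, the microglia-like S-phase sum hardly moved and the mitotic sum was slightly higher in cKO. The log2 ratio of cKO over flox was −0.02 (−0.04 to 0.00) for S-phase members and 0.14 (0.12 to 0.16) for mitotic members. Within clusters the mitotic ratio was 0.09 (0.06 to 0.11) in the Cd5l cluster, 0.07 (0.02 to 0.13) in the P2ry12 cluster and 0.14 (0.01 to 0.27) in the interferon cluster. These intervals exclude 0. Without the cells with 20 or more mitotic UMIs the ratio of the class was −0.03. That cutoff removes cells by the value measured and is reached more easily in the deeper cKO cells, so no equality is read from it. Of the 42 members 1 was called higher in cKO, where 2.70% of 10900 genes were, and 1 lower, where 10.3% of genes were. The members' median was 0.10 for mitotic and −0.06 for S-phase members, against −0.04 for all genes.

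The member called higher was Ube2c, the E2 enzyme that charges the anaphase-promoting complex (ENSMUSG00000001403, plus strand of chromosome 2 from 164769898 to 164778822). Flox microglia-like cells had 2771 UMIs of it (128 CPM) and cKO ones 3867 UMIs (196 CPM), a log2 ratio of 0.62 (0.55 to 0.69). Its part of all mitotic UMIs was 7.22% in flox and 10.1% in cKO microglia-like cells, 4.13% and 5.12% in the macrophage-like class, and 8.32% and 11.1% among oligodendrocyte precursor-like cells. Cdc20, the activator of the same complex, had 26.1 and 33.2 CPM, a ratio of 0.34 (0.18 to 0.51) that stayed under the fold. Border-associated macrophage-like cells had 74.3 and 61.2 CPM of Ube2c, a ratio of −0.28 (−0.64 to 0.09) whose interval holds 0.

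The member called lower was Plk1, the polo-like kinase that acts at mitotic entry and at the spindle (ENSMUSG00000030867, plus strand of chromosome 7 from 122159439 to 122169873). It had 368 UMIs in flox (16.9 CPM) and 146 in cKO (7.41 CPM), a log2 ratio of −1.19 (−1.48 to −0.91). Oligodendrocyte precursor-like cells had 51 and 17 UMIs of Plk1, 78.7 and 28.7 CPM, border-associated macrophage-like cells 20 and 5 UMIs, and macrophage-like cells 25 and 18 UMIs (−0.53, −1.49 to 0.40). Plk1 has the highest GC content of the members in the last 500 nt of its transcript, where 3′ libraries read, at 55.2%. It is the sole member in the highest of 10 GC bins (54.4% to 73.8%), whose 1118 genes had a median log2 ratio of −0.50 (quartiles −1.36 and 0.04) in microglia-like cells. The part of GC content in the Plk1 value was not tested beyond this. Bub1b, a kinase-like protein of the spindle checkpoint, had 12.4 and 8.73 CPM (−0.50) and Ccne2, a cyclin that starts S phase, 10.5 and 7.31 CPM (−0.52), both under the fold.

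In macrophage-like cells the mitotic sum was higher in cKO, by less than the 1.5-fold of the call rule, while the S-phase sum was level. The mitotic sum came to 4453 UMIs (144 CPM) in flox and 6153 UMIs (191 CPM) in cKO, a log2 ratio of 0.41 (0.35 to 0.46), and the S-phase ratio was 0.03 (0.00 to 0.07). Of the 40 members with enough UMIs, 8 (6 of them mitotic) were called higher and 0 lower, where 2.86% and 8.77% of 10835 genes were. Of the 24 mitotic members tested, 23 had a ratio above 0 (the exception was Aurka, −0.47), with a median of 0.37 against 0.02 for all genes. The interval covers counting error alone, and median depth differed with the library (7955 and 10076 UMIs). Its part in the ratio was not tested.

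The 8 were Ccna2 (5.38 and 8.20 CPM, 0.61), Ube2c (5.96 and 9.79 CPM, 0.72), the spindle midzone protein Prc1 (3.37 and 5.31 CPM, 0.66), the kinetochore protein Cenpf (1.59 and 2.52 CPM, 0.66), Hmmr (1.26 and 2.33 CPM, 0.88), Cdc20 (0.94 and 1.71 CPM, 0.86), Pclaf (6.61 and 10.1 CPM, 0.62) and Ccne1, a cyclin of S-phase entry (1.23 and 2.17 CPM, 0.82). All were at low levels, from 29 UMIs of Cdc20 to 204 of Pclaf in flox. The members with most UMIs stayed under the fold. Mki67 had 806 and 1193 UMIs (0.51), Cenpa 780 and 999 UMIs (0.30), Top2a 385 and 589 UMIs (0.55) and Pcna 8710 and 9059 UMIs (0.00). By cluster, the mitotic ratio was above 0 in 5 of the 6 macrophage-like clusters, from 0.39 to 0.79. In the sixth, led by Ly6c2, Slfn4 and Slfn1, flox had 457 UMIs (166 CPM) and cKO 109 UMIs (77.9 CPM), a ratio of −1.09 (−1.41 to −0.79). That cluster held 10.6% of flox and 5.51% of cKO macrophage-like cells. The other clusters held 25.3% and 29.6% (led by Arg1 and Gpnmb), 26.6% and 21.7%, 14.9% and 15.1%, 11.5% and 15.1%, and 11.1% and 12.9% (led by MHC class II genes). Without cells with 20 or more mitotic UMIs the ratio of the class was 0.18, with 95.5 and 108 CPM.

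**Figure D4:**
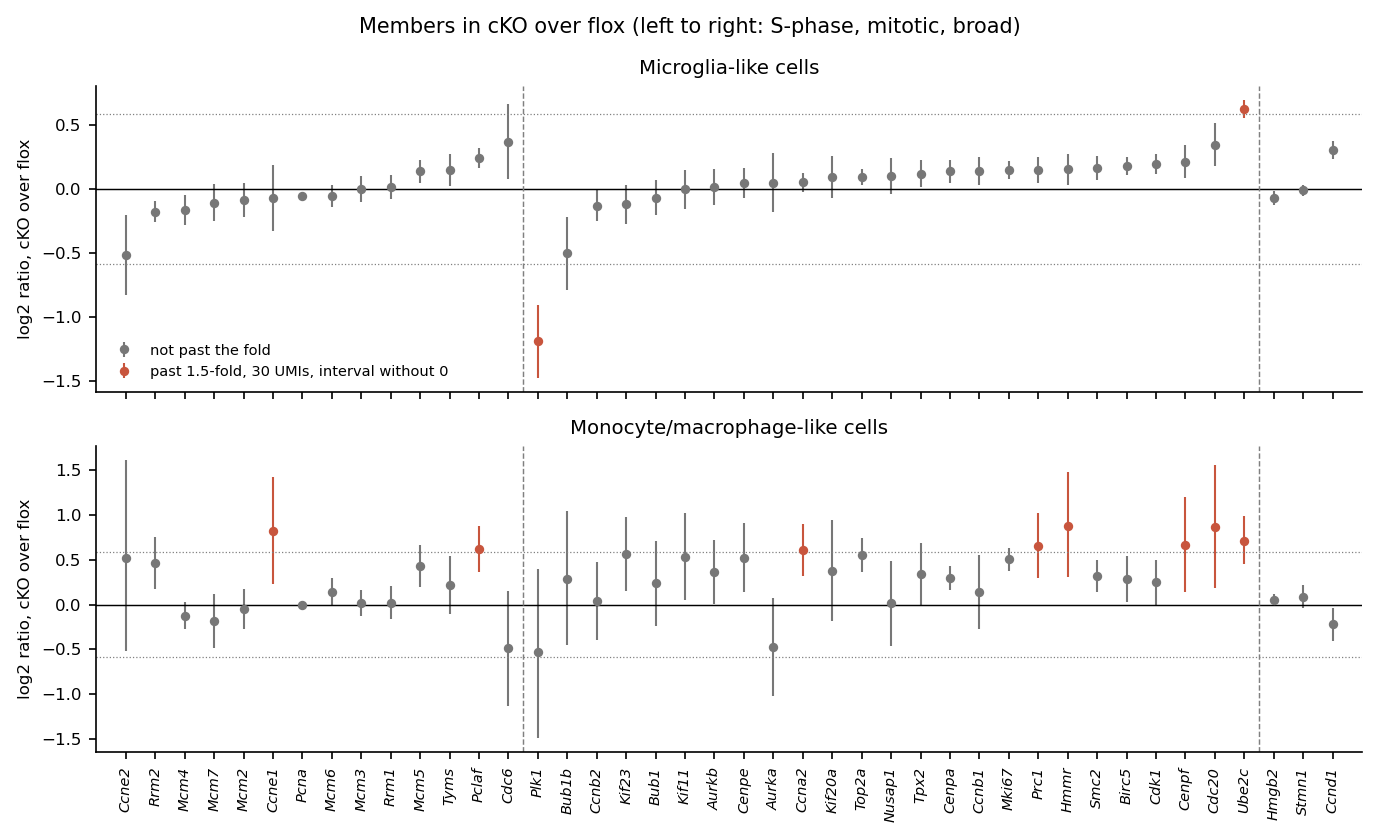
Log2 ratio of cKO over flox for each member in microglia-like (top) and macrophage-like cells (bottom), with exact conditional 95% intervals that cover counting error only. Dotted lines mark 1.5-fold and red points the members called past the fold, which are Ube2c and Plk1 in microglia-like cells and 8 members above 0 in macrophage-like cells.

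Border-associated macrophage-like cells had more S-phase and slightly fewer mitotic UMIs in cKO. The S-phase sum was 1091 and 1412 CPM (0.37, 0.29 to 0.46) and the mitotic sum 1026 and 896 CPM (−0.19, −0.29 to −0.10). Of 34 members tested 1 was called higher, the thymidylate synthase Tyms (18.4 and 34.4 CPM, 0.90), where 4.06% of genes were. Called lower, where 8.61% of genes were, were 2 members, the spindle protein Nusap1 (26.3 and 14.4 CPM, −0.86) and Kif23, a kinesin of cytokinesis (25.7 and 15.4 CPM, −0.74). Of their 11 S-phase members tested 10 had a ratio above 0 and of 20 mitotic members 16 had one below 0. The share of mitotic-positive cells was 16.2% and 15.5%.

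Among the 7 classes compared, endothelial and oligodendrocyte-like cells showed the highest ratios of the mitotic sum, and most of their cKO mitotic UMIs sat in 10 and 3 cells. Endothelial-like cells had 268 mitotic UMIs (94.2 CPM) in flox and 1166 (294 CPM) in cKO, a log2 ratio of 1.64 (1.45 to 1.84). In cKO, 10 of 544 cells had 20 or more mitotic UMIs and held 67.0% of them. In flox 1 of 567 cells did. Without these cells the levels were 87.3 and 102 CPM, and the thinned share was 0.946% (4 of 423 cells) and 4.17% (17 of 408). The 17 positive cKO cells carried 8281 CPM of endothelial markers against 13990 CPM in the other cKO endothelial-like cells, and 9946 against 10934 CPM of the microglia marker list, which includes Sparc, also an endothelial gene. Their markers of oligodendrocyte precursors summed to 70.3 against 5.80 CPM, both low levels. Markers of monocytes and macrophages (1379 against 2901 CPM), pericytes (42.2 against 132 CPM) and fibroblasts (0 against 10.7 CPM) were lower in them. The 4 positive flox cells had 0 CPM of oligodendrocyte precursor markers against 9.41 CPM in the other flox endothelial-like cells. The class drew on different clusters in the libraries. The cluster led by Igfbp7 and Ly6c1 with Col4a1 held 51.7% of flox and 64.9% of cKO cells (mitotic ratio 1.49), the cluster led by Spock2 38.8% and 15.4% (−0.11, −0.87 to 0.61), and a shallow one led by Igfbp7 and Ly6c1 with Ly6a 9.52% and 19.7% (2.01). Of 27 members tested 15 were called higher and 0 lower, where 3.70% and 12.7% of genes were. They include Ube2c (13 and 122 UMIs, 2.75), Cdk1, the kinase that drives mitosis (11 and 87 UMIs, 2.50), and Mki67 (8 and 60 UMIs, 2.43). Of the 13 mitotic members tested, only Kif23 (32 UMIs) and Smc2 (42 UMIs) met the UMI limit of the call rule in flox. The others met it through cKO alone. The mitotic calls largely count the same few cKO cells, so the number of calls is given as a description.

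In oligodendrocyte-like cells the mitotic sum was 105 CPM (230 UMIs) and 322 CPM (775 UMIs), a ratio of 1.62 (1.41 to 1.84). Just 3 of 362 cKO cells held 562 of the 775 UMIs. Without cells of 20 or more mitotic UMIs, a cutoff on the value measured, the levels were 93.9 and 92.2 CPM (−0.03). The thinned shares were 2.39% and 2.77%. Of 23 members tested 12 were called higher and 0 lower, where 4.01% and 8.96% of genes were, among them Ccnb1, a cyclin B (3 and 33 UMIs), and Birc5, the survivin of the chromosome passenger complex (5 and 39 UMIs). Of the 10 mitotic members tested, only Smc2 had 30 UMIs or more in flox (43). The others met the limit of 30 UMIs through cKO alone. The calls largely count the same few cells, so their number is given as a description. The 7 positive cKO cells carried 1491 CPM of oligodendrocyte precursor markers against 610.3 CPM in the other oligodendrocyte-like cells, and 30830.1 against 31763 CPM of oligodendrocyte markers. In flox the 6 positive cells carried 974 CPM of the precursor markers against 835 CPM in the others, a smaller difference.

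In dendritic cell-like cells the mitotic sum was 235 and 443 CPM (0.92), with 370 of the 590 cKO UMIs in 4 cells, but after thinning 5.22% of flox and 2.55% of cKO cells were positive, so no order is read from them. The 6 positive cKO cells carried 4570 CPM of microglia markers against 942 CPM in the other dendritic cell-like cells, and 1501 against 2795 CPM of dendritic cell markers. The part of these cells in the sum was not tested beyond leaving out those with 20 or more mitotic UMIs, which gave −0.13. Of 13 members tested 5 were called higher, where 3.73% of genes were, among them Top2a (28 and 71 UMIs). Of these 5, only Mki67 (47 UMIs) met the UMI limit of the call rule in flox. The calls largely count the same few cKO cells, so their number is given as a description. Rrm1, the large ribonucleotide reductase subunit (33 and 17 UMIs), and Ccnd1 (203 and 113 CPM) were called lower, where 9.0% of genes were. In neutrophil-like cells, the shallowest class with 1069 and 1296.5 UMIs at the median, the S-phase sum was 797 and 329 CPM (−1.27) and the mitotic sum 800.2 and 283 CPM (−1.50). Here 3 flox cells held 161 of 224 mitotic UMIs, and without them the levels were 256 and 283 CPM. The 4 thinned flox cells that were positive carried 6231 CPM of monocyte and macrophage markers against 1250.4 CPM in the other flox neutrophil-like cells, and 56620 against 25302 CPM of neutrophil markers. Only 3 members could be tested in this class. Stmn1 was called lower (46 and 12 UMIs), where 8.66% of 2309 genes were, and none was called higher, where 7.88% were.

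In single cells, members went together more within than across the sets. Over the 3429 microglia-like cells of both libraries, the median Pearson r of pairs of mitotic members was 0.62 and that of pairs of S-phase members 0.43, while pairs across the sets had a median of 0.22. These correlations describe cells that share 2 libraries and differ in depth, and no test was made. The licensing factor Cdc6 had the lowest r with the summed mitotic members among S-phase members, 0.18, followed by the cyclin Ccne2 with 0.21. Mcm2 and Ccne1 had 0.27 and Mcm4 had 0.28. Cdc6 and Ccne2 also had the lowest r with the other S-phase members, 0.37 and 0.39. Both had few UMIs, 184 and 227 in flox microglia-like cells. The part of sparse counts in r was not tested. Other S-phase members stood between both sets. Pclaf had r 0.74 with the mitotic sum and 0.61 with the other S-phase members, Rrm1 0.63 and 0.63, and Rrm2 0.59 and 0.65. Among mitotic members, r with the S-phase sum was 0.11 for the cyclin Ccnb2, 0.21 for Cdc20, 0.22 for Cenpa and 0.22 for Ube2c, against 0.57 for Top2a and 0.56 for Cdk1. Ccnd1 had r 0.02 with the mitotic sum and 0.27 with the S-phase sum.

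Of thinned mitotic-positive microglia-like cells, 65.8% in flox and 69.2% in cKO were also S-phase-positive, against 28.4% and 33.3% of mitotic-positive macrophage-like cells. Members went together less in macrophage-like cells, where the median r over 6702 cells was 0.30 for mitotic pairs, 0.10 for S-phase pairs and 0.08 across sets, at counts too sparse to read an order. The genes outside the members that went most with the mitotic sum in microglia-like cells were the condensin subunit Smc4 (r 0.77), Racgap1, which acts in cytokinesis (0.76), Pbk, Cdca8, Nuf2, Cdca3, Tmpo, Incenp, Cks1b and H2az1 (0.68). With the S-phase sum they were Uhrf1 (0.67) and the ligase Lig1 (0.67), then Atad2, Dnmt1, Tmpo, Fen1, Tubb5, Tk1, Chaf1a and Hat1 (0.54). In macrophage-like cells the highest were Cdca3 (0.32), Prr11, Pbk, Stil, Cdkn3, Spc24, Racgap1, Ncapd2, Nuf2 and Cdca8 for the mitotic sum. Ptma (0.18), Uhrf1, Tuba1b, Hnrnpab, Tk1, Hsp90aa1, Cit, Lig1, Ppia and Ncapd2 led for the S-phase sum.

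**Figure D5:**
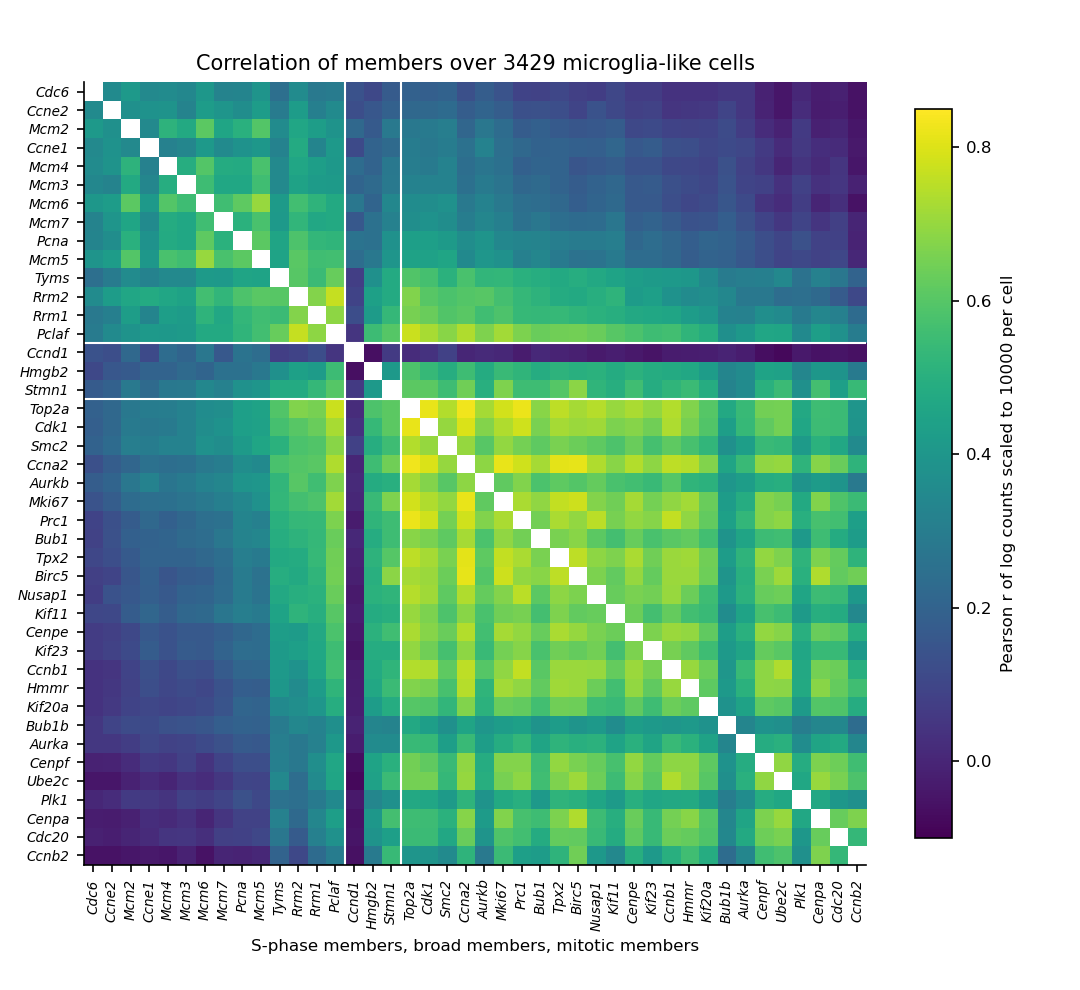
Pearson r between members over 3429 microglia-like cells of both libraries, on the log of counts scaled to 10000 per cell, with S-phase members first, then broad, then mitotic members, and the diagonal left blank. The mitotic block (median 0.62) is brighter than the S-phase block (0.43), Tyms, Rrm2, Rrm1 and Pclaf reach into the mitotic block, and Ccnd1 is dark throughout.

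The separation of the sets in single cells was also looked at in their promoters. RefSeq windows of 300 nt (GRCm38.p6, the assembly that mm10 names, 250 before and 50 after the start) were matched for 34 of the 42 members. The letters of 3 motifs were searched on both strands. E2F sites were taken as TTTCCCGC, TTTGGCGC, TTTCGCGC or TTTGCCGC, the cell cycle genes homology region (CHR), bound by the MuvB complex, as TTTGAA or TTCGAA, and the NF-Y box as CCAAT. E2F letters stood in 6 of 12 S-phase members and in 1 of 21 mitotic members, against 704 of 27025 gene symbols of the table. CHR letters stood in 17 of 21 mitotic members (81.0%) and 2 of 12 S-phase members (16.7%), against 21.7% of symbols. CCAAT stood in 19 of 21 and 9 of 12, against 41.1%. The 26 CHR matches of mitotic members had their median at −18.5 from the start. A match describes letters in this window and shows no binding.

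Of the 6 S-phase members with E2F letters, the 4 printed below are genes of the helicase, its loading and the clamp whose letters begin before the start. Not printed are 2 helicase genes, Mcm3, with letters after the start at 20 and 39, and Mcm7, with letters at −165 and 17. Each printed stretch runs 5′ to 3′ on the strand of the gene, from 160 bases before to 30 after its start. Capitals mark E2F letters on either strand, overlapping ones merged. The 4 genes had log2 ratios of cKO over flox between −0.05 and 0.37 in microglia-like cells.
Mcm5, chr8:75109349-75109538, plus strand: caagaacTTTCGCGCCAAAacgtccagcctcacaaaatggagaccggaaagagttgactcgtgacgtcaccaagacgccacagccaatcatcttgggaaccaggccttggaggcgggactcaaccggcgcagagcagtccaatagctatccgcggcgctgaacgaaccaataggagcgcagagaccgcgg
Mcm6, chr1:128359676-128359865, minus strand: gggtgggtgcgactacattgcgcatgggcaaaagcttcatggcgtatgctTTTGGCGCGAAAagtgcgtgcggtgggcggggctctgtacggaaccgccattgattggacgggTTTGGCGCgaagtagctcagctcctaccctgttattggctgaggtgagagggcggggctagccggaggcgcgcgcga
Pclaf, chr9:65890163-65890352, plus strand: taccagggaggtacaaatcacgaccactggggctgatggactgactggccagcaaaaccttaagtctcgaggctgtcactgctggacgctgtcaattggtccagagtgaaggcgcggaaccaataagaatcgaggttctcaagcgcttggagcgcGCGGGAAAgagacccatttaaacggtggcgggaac
Cdc6, chr11:98907991-98908180, plus strand: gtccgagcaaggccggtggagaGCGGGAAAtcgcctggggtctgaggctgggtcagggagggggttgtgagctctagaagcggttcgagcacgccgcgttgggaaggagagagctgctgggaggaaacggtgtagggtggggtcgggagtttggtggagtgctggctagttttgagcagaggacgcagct

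The mitotic members below are Ccnb2, Cdc20 and Ube2c, which had low r with the S-phase members in single cells, the kinesin Kif23, and Cdk1, the one mitotic member that holds both kinds of letters. Capitals mark CHR letters on either strand and, in Cdk1 at −131, the E2F letters TTTCGCGC. Ccnb2, Kif23 and Cdc20 carry TTTGAA within 20 bases of the start, and Ube2c carries it on the other strand.
Cdk1, chr10:69352883-69353072, minus strand: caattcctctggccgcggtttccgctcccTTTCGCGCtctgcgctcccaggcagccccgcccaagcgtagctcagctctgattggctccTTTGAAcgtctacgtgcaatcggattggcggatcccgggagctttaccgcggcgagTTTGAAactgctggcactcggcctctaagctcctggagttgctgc
Ccnb2, chr9:70421525-70421714, minus strand: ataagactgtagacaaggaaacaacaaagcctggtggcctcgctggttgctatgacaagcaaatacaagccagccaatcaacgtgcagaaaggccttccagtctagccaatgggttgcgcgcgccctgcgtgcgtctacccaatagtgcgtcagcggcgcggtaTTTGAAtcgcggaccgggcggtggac
Cdc20, chr4:118437314-118437503, minus strand: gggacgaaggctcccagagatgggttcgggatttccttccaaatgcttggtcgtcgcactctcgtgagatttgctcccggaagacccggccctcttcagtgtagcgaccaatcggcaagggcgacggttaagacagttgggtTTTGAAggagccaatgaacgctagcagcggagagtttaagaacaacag
Kif23, chr9:61946770-61946959, minus strand: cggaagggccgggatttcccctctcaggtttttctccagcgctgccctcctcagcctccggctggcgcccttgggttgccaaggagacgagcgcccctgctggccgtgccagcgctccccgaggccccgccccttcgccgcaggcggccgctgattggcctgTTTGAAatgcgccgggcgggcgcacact
Ube2c, chr2:164769769-164769958, plus strand: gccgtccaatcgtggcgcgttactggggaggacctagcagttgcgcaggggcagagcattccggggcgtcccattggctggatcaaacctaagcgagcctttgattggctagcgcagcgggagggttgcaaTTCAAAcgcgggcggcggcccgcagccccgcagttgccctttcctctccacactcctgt

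Lists of other cell cycle genes, chosen with earlier results of these data known, showed how the rest of the machinery moved between libraries. In microglia-like cells no gene of the 7 lists was called higher, where 2.70% of all genes were. Of all genes 10.3% were called lower, so the counts of lower genes in the lists are given as a description. Called lower were 2 of 7 CDK inhibitors tested, Cdkn2a (2.99 and 1.42 CPM) and Cdkn1c (2.62 and 1.52 CPM), both at low levels, and 2 of 32 replication genes, the polymerase subunit Pold1 (30.7 and 17.6 CPM, −0.81) and the chromatin assembly subunit Chaf1b (23.1 and 4.21 CPM, −2.46). Of 12 checkpoint genes 1 was lower, the phosphatase Cdc25c (−0.80), and of 43 genes of G2 and mitosis 4, among them the lamin Lmnb1 (114 and 75.9 CPM, −0.59), the condensin II subunit Ncapg2 (61.1 and 36.9 CPM, −0.73) and the separase Espl1 (36.3 and 21.7 CPM, −0.74). The remaining one, the kinesin Kif2c (22.6 and 5.23 CPM, −2.11), is named after its values were seen. The 13 Rb and E2F genes, 8 G1 cyclins and kinases and 11 tested myeloid growth factors and receptors had none. Cdkn2a, Pold1 and Chaf1b have 58.8%, 59.0% and 56.4% GC in their last 500 nt, in the same GC bin as Plk1. The other genes called lower lie below that bin. They are Cdkn1c (38.8%), Lmnb1 (40%), Ncapg2 (43%), Kif2c (48.8%), Cdc25c (50%) and Espl1 (53%). The part of GC content in these ratios was not tested.

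In macrophage-like cells 2.86% of all genes were called higher and 8.77% lower. Of 30 replication genes tested 4 were called higher, among them the DNA methylation partner Uhrf1 (3.73 and 6.46 CPM, 0.79), Gins2 of the replicative helicase (2.49 and 4.91 CPM, 0.98) and the kinase Cdc7 (0.70), and 2 lower, Pold1 (−0.68) and Chaf1b (−1.84). The remaining higher one was Gins3 (15 and 33 UMIs), named after its values were seen. Of 40 genes of G2 and mitosis 5 were higher, among them Cks1b (13.1 and 20.04 CPM, 0.61), Cdca8 (0.61) and Cdca3 (0.72), with Kif15 and Kif4 named after their values were seen, and 2 lower, Ncapg2 (196 and 111 CPM, −0.82) and Kif2c (−0.99). Ccnd3, a cyclin D (30.5 and 47.2 CPM, 0.63), Cdkn3 (0.90) and the spindle checkpoint kinase Ttk (12 and 33 UMIs, 1.40) were the single genes higher in their lists. The medians were 0.23 for genes of G2 and mitosis and 0.18 for replication genes, against 0.02 for all genes.

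The levels of these regulators also differed between the classes. The CDK inhibitor Cdkn1a, the p21 protein, had 349 and 381 CPM in microglia-like and 404 and 385 CPM in macrophage-like cells. Cdkn1b, the p27 protein, had 63.3 and 62.1 CPM in microglia-like cells and 109 and 107 CPM in macrophage-like cells. Cdkn2c, the p18 protein, went the other way with 46.7 and 46.9 against 5.54 and 5.25 CPM. Csf1, a growth factor of macrophages and microglia, had 289.8 and 387 CPM in microglia-like and 12.1 and 13.4 CPM in macrophage-like cells, and its receptor Csf1r 2375 and 2799 against 720.4 and 965 CPM. Il34, the other ligand of that receptor, had 3 UMIs or fewer in either class and library.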

How the data were processed

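Cells of infarct tissue from 1 flox and 1 cKO library were measured by BD Rhapsody single-cell RNA sequencing. The deposited matrices hold raw UMI counts per gene and barcode. The submitters' processing notes name CASAVA 1.8, STARsolo, Seurat and mm10. The sources used here do not state the aligner settings, the annotation or the cell caller, nor whether doublets were removed by the authors before the counts were deposited.

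Barcodes with at least 500 UMIs, 200 genes and at most 25% mitochondrial UMIs were kept, 8275 in flox and 7126 in cKO. Scrublet (scanpy 1.11.5, expected rate 6%) marked 214 (2.59%) and 143 (2.01%) as doublets, which were left out. Leiden clusters (leidenalg 0.10.2, resolution 1, 2000 variable genes, 30 components, 20 neighbours) were made without members, other cell cycle genes, Hilpda, sex-linked, mitochondrial, ribosomal and haemoglobin genes. Clusters were named by marker lists, with naming thresholds set after the clusters were seen, and 2 of 33 stayed unnamed (253 flox and 229 cKO cells). UMIs were summed per class and library. Classes were compared where both libraries held 100 cells or more (7 classes), as log2 ratios of CPM, and ratios of at least 1.5-fold with 30 UMIs and an interval without 0 were called. Exact Poisson, conditional binomial and Clopper-Pearson intervals were computed with scipy 1.17.1. These reflect counting error alone, and no test was run because each group has 1 library. GC content was taken from the last 500 nt of GENCODE transcripts (31107 of 31253 features).

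The text names all 42 members, up to 3 higher and 3 lower genes of each pathway list with most UMIs, and the 10 genes with the highest r with each sum, unless it says otherwise. Members and lists were chosen with earlier results of these data known. Calculations were tested on simulated data. Alternatives covered cell filters, doublets, resolution, a per-cell marker gate, TMM scaling (edgeR 4.0.16), equal weight per cell, GC content, the thinning depth and the call rule.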

Additional observations from a re-analysis of the deposited data

Results flagged for a closer look

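In some classes the ratio of cKO over flox had the opposite sign to other classes, with counting intervals that exclude 0 on both sides. The difference between classes was not tested, since each group has 1 library. For the S-phase sum, border-associated macrophage-like and endothelial-like cells were higher in cKO, while neutrophil-like cells (log2 ratio −1.27, 223 and 141 UMIs) and dendritic cell-like cells (−0.23, 551 UMIs in flox) were lower. For the mitotic sum, 5 classes were higher in cKO, among them dendritic cell-like cells, while border-associated macrophage-like cells (−0.19) and neutrophil-like cells (−1.50, 224 and 121 UMIs) were lower. In dendritic cell-like cells the ratio was −0.13 without cells with 20 or more mitotic UMIs and −0.087 under the per-cell gate, and the share of positive cells was lower in cKO, so no order is read. In neutrophil-like cells 3 flox cells held 161 of the 224 UMIs.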

How the results depend on the processing

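With 1 library per group the ratios have no replicate error, so neither a replicate nor an animal could be left out. No paired analysis was possible because the labels carry no replicate numbers and each group has 1 library. Shallow cells and classes with few mitotic UMIs limit every ratio outside microglia-like and macrophage-like cells. The values below are log2 ratios of cKO over flox, and the cause of a shift was not tested unless fewer cells or genes enter by construction. Leaving out cells with 20 or more mitotic UMIs, an alternative chosen after seeing the data, changed the mitotic ratio to −0.032 in microglia-like, 0.18 in macrophage-like, −0.045 in border-associated macrophage-like, 0.14 in neutrophil-like, −0.13 in dendritic cell-like, 0.22 in endothelial-like and −0.026 in oligodendrocyte-like cells. This alternative removes cells by the value under study, at a cutoff that deeper cells reach more easily. No equality of the libraries is read from it. Adding the unnamed low-depth cluster to microglia-like cells, also chosen after seeing the data, gave −0.02 for the S-phase and 0.13 for the mitotic sum. TMM scaling gave 0.018 (S-phase) and 0.18 (mitotic) in microglia-like and 0.52 (S-phase) in endothelial-like cells. Equal weight per cell gave 0.085 and 0.32 in microglia-like cells, −0.017 (S-phase) in macrophage-like, 0.24 (S-phase) in border-associated macrophage-like and 0.24 (S-phase) in endothelial-like cells, and −0.10 and 0.60 in oligodendrocyte-like cells. Subtracting the median of genes of like GC gave 0.030 for the microglia-like S-phase sum. Without the member with most UMIs the S-phase ratio was 0.0070 in microglia-like, 0.10 in macrophage-like and 0.21 in oligodendrocyte-like cells. The per-cell gate, which left 1044 flox and 967 cKO macrophage-like cells, gave −0.13 and 0.35 there and −0.087 for the mitotic sum of dendritic cell-like cells. Clusters at resolution 2 gave −0.086 for the mitotic sum of border-associated macrophage-like cells. With doublets kept, the mitotic ratio was 0.18 in microglia-like, 1.36 in endothelial-like and 1.31 in oligodendrocyte-like cells. With at most 10% mitochondrial UMIs, endothelial-like cells had 0.54 and 1.98 and oligodendrocyte-like cells 1.86 (mitotic).

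The mitotic share depends on depth and rule by construction. Thinned to 1000 UMIs it was 21.0% in flox and 26.7% in cKO microglia-like cells and 1.20% and 1.47% in macrophage-like cells. At 4000 UMIs it was 38.7%, 42.5%, 5.64% and 6.37% in the same order. With at least 1 member it was 41.8%, 49.1%, 18.3% and 19.7%, and with at least 3 members 21.9%, 27.5%, 0.764% and 1.13%. In each of these settings the microglia-like share exceeded the macrophage-like one. At 2-fold, 0 members were called higher in microglia-like, in macrophage-like and in border-associated macrophage-like cells, and 0 lower in the last. At 10 UMIs, 20 members were called higher in oligodendrocyte-like cells.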

Other observations

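A low-depth cluster led by Mmp12, Lpl, Cd5l and Spp1 stayed unnamed, with 223 flox and 211 cKO cells and median depths of 1108 and 1198 UMIs. Its mitotic members summed to 2043 and 1656 CPM (log2 ratio −0.30) and its S-phase members to 1413 and 1515 CPM. After thinning, 30 of 79 flox cells (38.0%) and 24 of 76 cKO cells (31.6%) were mitotic-positive, and the other cells were too shallow to be thinned.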
